A study of Mus musculus with 16 samples.

Results

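The genes of rod phototransduction and the rod outer segment were followed through 16 RNA-seq libraries of whole mouse retina. The set holds 32 genes, given by name: each was taken by its symbol in a table of 54532 genes for uninjected retinas and by the same gene identifier in a table of 48440 genes for injected retinas, and all 32 were found in both. The study asked how retinal transcripts differ with age, with a mutation of Elovl2, which encodes an elongase of fatty acids, and after injection of 24:5, a polyunsaturated fatty acid with 24 carbons and 5 double bonds. All mice were C57BL6/J. The uninjected groups were wildtype at 12 months (3 libraries), Elovl2 mutant at 12 months (3 libraries) and wildtype at 18 months (4 libraries). The design text names the mutation C234W but the genotype labels name it C34W; either way it is a substitution, so the level of the transcript does not check the genotype. Both injected groups were wildtype at 18 months: 3 retinas from eyes that received 0.36 nmol 24:5 into the vitreous and 3 from eyes that received vehicle, all taken 5 days later. The vehicle eyes were the fellow eyes of treated animals, but the labels do not say which retinas share an animal, nor that each library of a group is a separate mouse. The p-values below therefore measure the spread between these libraries, which may be partly technical.

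Rods sense dim light with a cascade of proteins in the outer segment, a stack of membrane discs carried on a modified cilium. Visual pigment that has absorbed a photon activates transducin, transducin releases the brake on a phosphodiesterase, and the phosphodiesterase breaks down cyclic GMP, so that cation channels held open by cyclic GMP close. The response ends when the pigment is phosphorylated and capped by arrestin, when transducin is switched off by its GTPase-accelerating complex, and when guanylate cyclase makes new cyclic GMP. The discs are renewed throughout life and are rich in very long polyunsaturated fatty acids, which is the tie to elongases such as ELOVL2.

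The uninjected libraries held 12810558 to 30519417 reads, recovered from the deposited FPKM values (fragments per kilobase of gene length, scaled to library size). The injected libraries held 22066668 to 25609242 counts, given below as CPM (TMM-normalised counts, scaled to library size). The 32 genes together took 5.84% to 6.30% of the reads in the uninjected and 4.34% to 4.93% in the injected libraries. These shares have different denominators and are not compared. All genes of the mitochondrial chromosome together took 2.66% to 4.31% of the uninjected reads, and the 13 mitochondrially encoded genes followed here are listed at 0 in every injected library. Libraries stood apart inside the groups. In 5 of the 10 uninjected libraries (12-month wildtype 1 and 2, mutant 1, and 18-month wildtype 2 and 3) Malat1, a nuclear noncoding RNA, was above 200 FPKM. In 3 of the 6 injected libraries (vehicle 3, 24:5 libraries 2 and 3) Irf9, an interferon-response factor, was above 100 CPM. Structural RNAs took 8.54% to 13.4% of the injected counts, and the 16 lens genes summed to 61.9 to 1945 CPM there, against 1.4 to 3.0 FPKM in the uninjected retinas, where 4 or 5 of the 16 were at 0 in every library of a group. Because the tissue is bulk retina, fewer rods and less RNA per rod cannot be told apart in any value below. Nor do the values show which cells a transcript came from, and any part of cells other than rods was not measured.

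The mean level over the uninjected libraries ran from 33.6 FPKM for Gucy2f to 3833 FPKM for Gnat1, while each gene varied far less from library to library (coefficient of variation 2.69% to 19.7%, median 7.35%). The 3 transducin genes encode the alpha subunit that carries the signal (Gnat1), its beta partner (Gnb1) and its gamma partner (Gngt1). Gnat1 (ENSMUSG00000034837, chromosome 9, 107674474 to 107679712, mm10) had the highest level per gene length of all 32 in both tables. It was at 3784, 3899.8 and 3583 FPKM in the 12-month wildtype libraries, 3889, 4044 and 3855 FPKM in the mutants and 3910.1, 3677, 3823 and 3869 FPKM at 18 months, so the groups overlapped and the highest library was 1.13 times the lowest. Gnb1 lay between 1197 and 1337 FPKM. Gngt1 was at 252, 237 and 288 FPKM in the 12-month wildtype libraries, 210.4, 245 and 282 FPKM in the mutants and 343, 219, 234 and 292 FPKM at 18 months, with the highest library an 18-month retina and the lowest a mutant (coefficient of variation 15.6%).

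The rod phosphodiesterase has 2 catalytic subunits, Pde6a and Pde6b, held inactive by Pde6g. Pde6a was at 510.1, 542 and 539 FPKM in the 12-month wildtype libraries, 542, 597 and 542 FPKM in the mutants and 526, 542, 562 and 566 FPKM at 18 months. The highest of its libraries was mutant 2 and the lowest 12-month wildtype 1. Pde6b was the steadiest of the 32 genes across the uninjected libraries, with a coefficient of variation of 2.69%. Pde6g was at 787, 709 and 919 FPKM in the 12-month wildtype libraries, 702, 805 and 799 FPKM in the mutants and 894, 676, 766 and 807 FPKM at 18 months, and its 5 lowest values fell in the 5 Malat1-high libraries, from all 3 groups.

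The channel and exchanger genes set the current that light turns off: Cnga1 and Cngb1 form the cyclic GMP-gated channel, and Slc24a1 extrudes calcium in exchange for sodium. Slc24a1 was at 249, 283 and 247 FPKM in the 12-month wildtype libraries, 275, 274 and 254 FPKM in the mutants and 245, 285, 281 and 267 FPKM at 18 months. Cngb1 was at 107, 123 and 117 FPKM in the 12-month wildtype libraries, 119.6, 116 and 109.7 FPKM in the mutants and 107, 115, 113 and 109 FPKM at 18 months, and in both genes the groups overlapped throughout. Cnga1 lay between 136 and 166 FPKM.

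Shut-off of the receptor uses the kinase Grk1, arrestin (Sag) and the calcium sensor recoverin (Rcvrn), which restrains the kinase. Rcvrn was at 961, 846 and 936 FPKM in the 12-month wildtype libraries, 883, 1058 and 1024 FPKM in the mutants and 1164, 922, 974 and 1012 FPKM at 18 months. Its highest library was 18-month wildtype 1 and its lowest 12-month wildtype 2. Sag lay between 506 and 607 FPKM and Grk1 between 209.8 and 301 FPKM. Shut-off of transducin uses a complex of Rgs9, its anchor Rgs9bp and Gnb5. Gnb5 was at 238, 244 and 285 FPKM in the 12-month wildtype libraries, 243, 262 and 281 FPKM in the mutants and 254, 244, 269 and 241 FPKM at 18 months. Rgs9 was at 60.9, 82.0 and 53.7 FPKM in the 12-month wildtype libraries, 92.2, 71.3 and 66.9 FPKM in the mutants and 55.5, 85.8, 93.5 and 76.8 FPKM at 18 months, the widest relative spread of the 32 genes (coefficient of variation 19.7%), with low and high libraries in every group. Rgs9bp lay between 118 and 161 FPKM.

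Cyclic GMP is restored by the membrane guanylate cyclases Gucy2e and Gucy2f under the calcium-sensing activators Guca1a and Guca1b. Guca1a was at 1093, 1139 and 1254 FPKM in the 12-month wildtype libraries, 1089.5, 1254 and 1449.9 FPKM in the mutants and 1450.4, 1179, 1256 and 1227 FPKM at 18 months. Guca1b was at 663, 611 and 789 FPKM in the 12-month wildtype libraries, 609, 722 and 793 FPKM in the mutants and 849.5, 641, 707 and 747 FPKM at 18 months. For both activators the top libraries were 18-month wildtype 1 and mutant 3, and Guca1b was also high in 12-month wildtype 3. Gucy2f, at 31.2, 39.5 and 24.7 FPKM in the 12-month wildtype libraries, 40.7, 32.6 and 29.8 FPKM in the mutants and 26.4, 39.7, 37.9 and 33.6 FPKM at 18 months, was the lowest of the 32 genes per length in these retinas, and its 4 highest libraries were all Malat1-high. Gucy2e lay between 74.0 and 94.3 FPKM.

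Disc structure rests on the rim tetraspanins Prph2 and Rom1, the small disc protein Prcd, the cadherin Cdhr1 and prominin (Prom1), the last of these at growing discs. Prph2 (ENSMUSG00000023978, chromosome 17, 46910459 to 46924933, mm10) had the second highest level per gene length of the 32, at 1584, 1642 and 2038 FPKM in the 12-month wildtype libraries, 1726, 1952 and 1980.1 FPKM in the mutants and 2071, 1793, 1772 and 1948 FPKM at 18 months. Rom1 had the third highest, at 1334, 1228 and 1701 FPKM in the 12-month wildtype libraries, 1241, 1481 and 1534 FPKM in the mutants and 1678, 1267, 1348 and 1470.4 FPKM at 18 months. Prom1 was at 96.6, 97.0 and 96.3 FPKM in the 12-month wildtype libraries, 94.6, 94.9 and 92.5 FPKM in the mutants and 87.3, 93.5, 92.7 and 89.9 FPKM at 18 months, so every 18-month library lay below every 12-month wildtype library, by a small margin. Cdhr1 and Prcd lay between 216 and 249 FPKM and between 130.1 and 206 FPKM.

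The outer segment stands on a ciliary axoneme (Rp1, Rp1l1, the ciliary kinase Mak), is supplied from the inner segment (Tulp1, Reep6), and holds the actin bundler Fscn2 at the disc-forming base. Reep6 was at 316, 351 and 289 FPKM in the 12-month wildtype libraries, 377, 362 and 361 FPKM in the mutants and 345, 360.3, 366 and 360.1 FPKM at 18 months, so the mutant libraries all lay above the 12-month wildtype libraries. Tulp1 was at 176, 172 and 169 FPKM in the 12-month wildtype libraries, 166, 163 and 160.0 FPKM in the mutants and 171, 160.4, 170.0 and 165 FPKM at 18 months, with the mutant libraries all below the 12-month wildtype ones. Mak, Fscn2, Rp1 and Rp1l1 ranged over 23.6 to 44.8, 90.9 to 150.0, 123 to 149 and 83.7 to 106 FPKM. The 2 interphotoreceptor matrix genes, Impg1 and Impg2, encode proteoglycans of the space around the outer segments. Impg1 was at 98.6, 102 and 93.6 FPKM in the 12-month wildtype libraries, 101, 107 and 103 FPKM in the mutants and 86.5, 104, 100.3 and 98.1 FPKM at 18 months. Impg2 was at 49.7, 49.6 and 48.4 FPKM in the 12-month wildtype libraries, 47.4, 52.2 and 52.0 FPKM in the mutants and 48.2, 51.1, 54.7 and 53.9 FPKM at 18 months, and its coefficient of variation over the 10 libraries was 4.83%. Of the 32 genes, 9 overlap another annotated gene, and for Rcvrn, Gnb5 and Prcd that gene lies on the opposite strand with a mean of at least 10 FPKM (Glp2r at 17.9, Gm48677 at 19.8 and Cygb at 58.3 FPKM). The libraries mark strand, but the strand setting of the counting is not given in the sources used here, so reads of these 3 pairs may be shared.

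**Figure D1:**
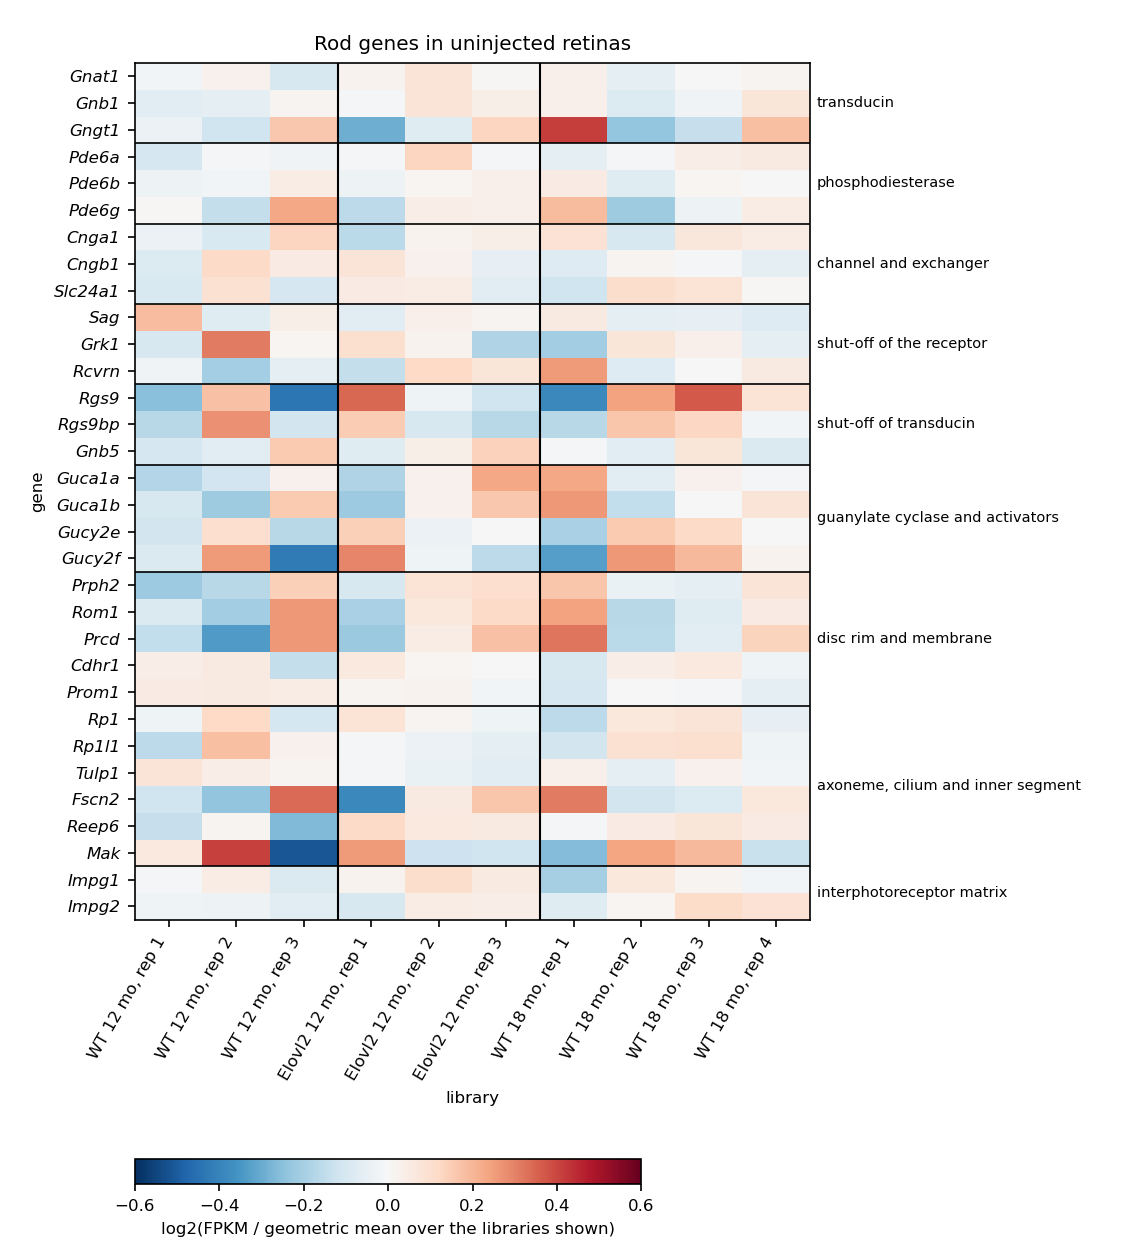
Each cell shows 1 of the 32 rod genes (rows, grouped by role) in 1 uninjected library (columns; rep is the replicate number, WT is wildtype, mo is months) as log2 of its FPKM over the gene's geometric mean across the 10 libraries. High and low cells alternate within each group, as in Rgs9 (53.7 to 93.5 FPKM) and Mak (23.6 to 44.8 FPKM), and no group is uniformly red or blue.

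For some of these genes the sequence before the transcription start was searched for 2 short runs of letters. One is TAATCC, the core bound by CRX and OTX2, homeodomain factors of photoreceptors. The other is TGCTGA, part of the site bound by the NRL family. Both strands were searched, and the matches of the 2 runs do not overlap in the windows shown. The window was the 250 bases before each start in RefSeq on GRCm38.p6, which was available for 23 of the 32 genes. TAATCC was in the windows of 9 of the 23 (39.1%): Sag, Cnga1, Gngt1, Cngb1, Gnb5, Gucy2e, Mak, Guca1a and Gucy2f. Of all 27025 genes with such a window, 7.21% had it. TGCTGA was in 3 of the 23 (13.0%), Sag, Pde6b and Rgs9, against 18.0% of all genes, and Sag had both, as did 1.12% of all genes. A match describes letters and does not show that a factor binds there. Prom1 and Mak had more than 1 window, and a match in any was counted. Gnat1, Pde6a, Pde6g, Rcvrn, Rgs9bp, Guca1b, Rp1, Rp1l1 and Reep6 had none in the table.

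Windows are printed 5′ to 3′ on the gene's strand for 4 genes. Sag has both runs, and Cngb1 and Gucy2f have TAATCC in 2 places. Impg2 has neither and was chosen for its relative spread in the injected retinas, the widest of the rod genes. The next widest spread there was that of Mak, which has a TAATCC match, and Rom1 and Prph2 also have neither run. A link between these runs and the spread was not tested. Capitals mark the matches.
Sag, chr1:87803430-87803679 (+): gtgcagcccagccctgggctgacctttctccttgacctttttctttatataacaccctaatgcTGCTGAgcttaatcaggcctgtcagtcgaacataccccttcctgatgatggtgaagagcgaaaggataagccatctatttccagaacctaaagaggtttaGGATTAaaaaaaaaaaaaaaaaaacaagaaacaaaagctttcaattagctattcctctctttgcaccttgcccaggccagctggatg
Cngb1, chr8:95306586-95306835 (-): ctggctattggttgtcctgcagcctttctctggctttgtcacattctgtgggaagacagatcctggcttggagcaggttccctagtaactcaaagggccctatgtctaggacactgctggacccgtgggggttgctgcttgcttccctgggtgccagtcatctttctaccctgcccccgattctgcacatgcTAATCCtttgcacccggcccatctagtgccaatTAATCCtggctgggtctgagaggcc
Gucy2f, chrX:142196937-142197186 (-): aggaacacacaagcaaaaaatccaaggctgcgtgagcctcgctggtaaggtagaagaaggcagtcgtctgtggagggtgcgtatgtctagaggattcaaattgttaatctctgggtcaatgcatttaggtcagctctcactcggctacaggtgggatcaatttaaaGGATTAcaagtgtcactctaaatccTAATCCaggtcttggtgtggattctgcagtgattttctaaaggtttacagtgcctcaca
Impg2, chr16:56204063-56204312 (+): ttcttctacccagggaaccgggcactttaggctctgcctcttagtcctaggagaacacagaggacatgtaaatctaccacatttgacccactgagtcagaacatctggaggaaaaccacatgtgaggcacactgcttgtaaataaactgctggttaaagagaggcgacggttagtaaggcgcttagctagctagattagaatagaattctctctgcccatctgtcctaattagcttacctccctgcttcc
The match nearest the start begins 87 bases before it in Sag, 25 in Cngb1 and 59 in Gucy2f.

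At 18 months the rod genes were close to their 12-month level. In wildtype retinas the fitted log2 fold change was positive for 21 of the 32 genes and negative for 11 at 18 months, with a median of 0.03 (median over all 13786 genes tested, -0.00). None of the 32 had an adjusted p below 0.05 (limma over all genes tested, Benjamini-Hochberg), the rule for a call in the uninjected retinas, and the background was 0 of 13786 (0%). None of the 32 had an unadjusted p below 0.05 either, against 503 genes over the table (3.65%, with 1.69% higher). On the recovered reads edgeR called 1 of 17516 genes and DESeq2 called 9 of 33409 for age. None of them was a member, and at so low a share 0 of 32 says little. For 31 of the 32 genes the 95% interval of the fold change lay within 1.5-fold either way, and the exception was Rgs9 (fold 1.18, interval 0.867 to 1.61). Fold changes here are on the log2(FPKM + 1) scale, and counts of genes higher or lower in a comparison go by the sign of this change, which for a gene near 0 can differ from that of the mean FPKM (Mak, log2 0.02, averaged 34.3 FPKM at 18 and 34.6 FPKM at 12 months).

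The 4 genes with the smallest p for age were Reep6, Prom1, Rcvrn and Rgs9. Reep6, which shapes the endoplasmic reticulum of rods, averaged 319 ± 31.1 FPKM (SD, n = 3) in the younger and 358 ± 8.96 FPKM (SD, n = 4) in the older retinas. The change on the log2 scale was 0.17 (SE 0.084, limma adjusted p = 0.9999). Prom1 was at 90.8 ± 2.84 FPKM (SD, n = 4) in the older and 96.6 ± 0.323 FPKM (SD, n = 3) in the younger retinas, a log2 fold change of -0.09 (SE 0.062, limma adjusted p = 0.9999). Prom1 was the 1 member whose age groups did not overlap; of all genes tested, 2.22% were lower and 1.95% higher at 18 months without overlap. Rcvrn and Rgs9 differed by 0.15 and 0.24 on the log2 scale (SE 0.11 and 0.20). By role, the 4 cyclase genes and activators and the 3 transducin genes all had positive differences, the cyclase group from 0.08 to 0.14, and none of these passed the test.

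The share of each library taken by the 32 genes together was 6.08% ± 0.183 (SD, n = 4) at 18 months and 6.08% ± 0.147 (SD, n = 3) at 12 months in wildtype. An exact two-sided permutation test over libraries gave p = 1, where 0.0571 is the smallest p that 4 against 3 allows.

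In 12-month Elovl2 mutants the rod genes were also near the wildtype level. The log2 fold change was positive for 21 genes and negative for 11, with a median of 0.04 (all genes, -0.01). No member was called by limma, as were 0 of 13786 genes (0%); at an unadjusted p below 0.05 there was 1 member, Reep6, against 302 genes (2.19%) over the table. On the recovered reads edgeR and DESeq2 each called 0 genes for genotype. Reep6 averaged 367 ± 8.68 FPKM over the mutant and 319 ± 31.1 FPKM over the wildtype libraries (SD, n = 3 each). This was 0.21 on the log2 scale (SE 0.09, limma adjusted p = 0.9998).

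Reep6 was higher in the mutant without overlap, and Tulp1 and Prom1 were lower without overlap; the table as a whole had 3.05% of genes higher and 2.92% lower in this way. Tulp1, needed for protein traffic into the outer segment, averaged 163 ± 2.83 FPKM over the mutant and 172 ± 3.69 FPKM over the wildtype libraries (SD, n = 3 each), a log2 difference of -0.08 (SE 0.071, limma adjusted p = 0.9998). Rgs9 and Pde6a followed in order of p, with log2 differences of 0.23 (SE 0.21) and 0.08 (SE 0.084). The interval lay within 1.5-fold for 31 of 32 genes, again except Rgs9 (fold 1.18, interval 0.844 to 1.64). The share of reads in the 32 genes was 6.13% ± 0.174 in mutants and 6.08% ± 0.147 in wildtype (SD, n = 3 each; exact permutation p = 0.7, smallest possible 0.1).

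Weighting libraries by their estimated quality was the 1 setting tried for the uninjected retinas that called any member. With weights, limma called Reep6 (log2 0.19, adjusted p = 0.0478) and Sag (log2 -0.21, adjusted p = 0.0491) for age, 2 of 32 against 9.04% of all genes (5.15% higher). For genotype it called Reep6 (log2 0.20, adjusted p = 0.0222), Prph2 (log2 0.28, adjusted p = 0.0227) and Pde6a (log2 0.18, adjusted p = 0.0430), 3 of 32 against 18.8% (9.55% higher). Age and genotype share the 12-month wildtype libraries, so the values of Reep6 in the 2 comparisons are not independent. Among those controls, library 1 had reactive gliosis genes summing to 89.7 FPKM, against 28.3 to 42.3 FPKM in the other 9 uninjected libraries, with none of the 13 genes at 0 throughout a group; their part in these values was not tested. Without that library 18 and 19 members were higher for age and genotype, and none was called.

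Set against the younger mutants directly, 18-month wildtype retinas had 17 rod genes higher and 15 lower, with a median log2 difference of 0.01 (all genes, 0.01). All 32 intervals lay within 1.5-fold. No member was called, had an unadjusted p below 0.05 or was free of overlap in either direction; over the table limma called 0 genes (0%), 2.14% had an unadjusted p below 0.05, and 2.1% were higher and 2.37% lower without overlap. The smallest p belonged to Impg1 (log2 -0.09, SE 0.08, limma adjusted p = 0.99999), followed by Prom1 (-0.05), Gngt1 (0.13) and Cngb1 (-0.05). The share of reads differed by less than the spread (6.08% ± 0.183, n = 4, and 6.13% ± 0.174, n = 3; exact permutation p = 0.686). Without mutant library 1, 10 of 32 genes were higher in place of 17, with a median of -0.02.

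**Figure D2:**
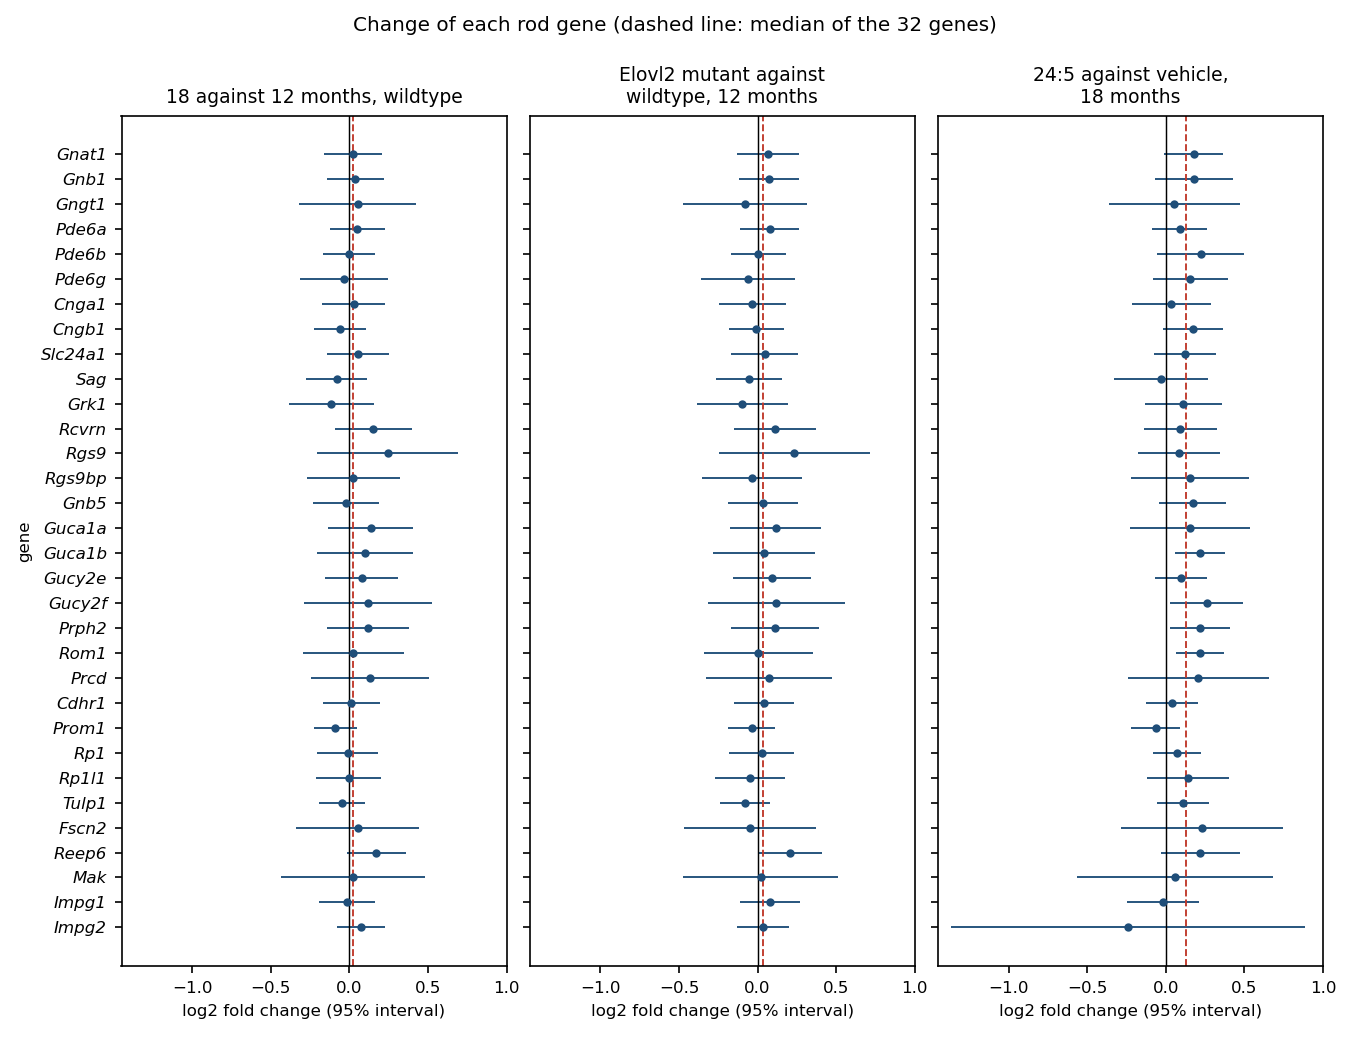
Points are log2 fold changes of the 32 rod genes with 95% intervals (horizontal axis, the same in all panels), for age, genotype and 24:5; the dashed line is the median of the 32. The medians are 0.03, 0.04 and 0.13, the 24:5 panel has 28 points to the right of 0, and the intervals that leave out 0 are those of Reep6 for genotype and Rom1, Guca1b, Prph2 and Gucy2f for 24:5.

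Rod genes also differed between libraries of the same group, and this difference followed gene length. Of the 11 members shorter than 3500 bases in the deposited table, a limit set after the values were seen, 10 had a lower mean log2 FPKM in the 5 Malat1-high than in the 5 Malat1-low libraries, with a median difference of -0.21. For Pde6g, Guca1b, Prph2, Rom1, Prcd and Fscn2 the 2 sets of libraries did not overlap. The rim gene Rom1 (1526 bases) ran from 1228 to 1348 FPKM in the Malat1-high and from 1470.4 to 1701 FPKM in the Malat1-low libraries. Of the 21 longer genes 14 were higher in the Malat1-high libraries (median 0.05), with Mak and Cdhr1 free of overlap and Gnb1 lower without overlap. Mak (7592 bases) ran from 35.2 to 44.8 and from 23.6 to 31.1 FPKM. Over all genes tested 12.6% were higher and 9.86% lower in the Malat1-high libraries without overlap.

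Across the 32 genes the difference rose with log gene length (Pearson r = 0.70, Spearman rho = 0.72), and across all 13786 genes tested the values were 0.02 and 0.32. The members were taken on log2 FPKM and all genes on log2(FPKM + 1), so the 2 pairs of values are not strictly alike. The share of all short genes that were lower was not computed, so the relation is not shown to be particular to rod genes. These correlations describe genes that share the same 10 libraries, and genes are not independent replicates. Each group had libraries of both kinds. Inside the Malat1-high libraries (2 at each age) 22 of 32 members were higher at 18 months (median log2 0.06), and inside the Malat1-low ones (2 and 1) 17 were (median 0.01). For genotype the counts were 17 (1 mutant, 2 wildtype; median 0.01) and 15 (2 mutants, 1 wildtype; median -0.02), and for 18-month wildtype against mutant 18 (median 0.01) and 12 (median -0.03).

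**Figure D3:**
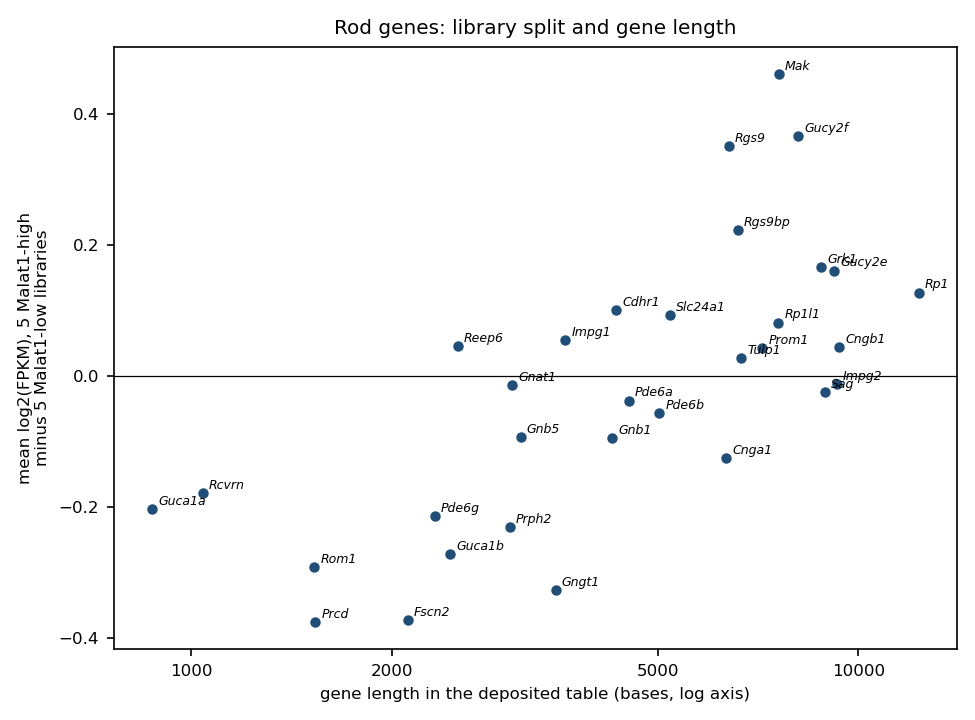
Each point is 1 rod gene: its length in the deposited table (bases, log axis) against the mean log2 FPKM in the 5 Malat1-high minus the 5 Malat1-low uninjected libraries. Short genes such as Prcd and Fscn2 lie lowest (-0.38 and -0.37) and Mak highest (0.46), with Pearson r = 0.70 over 32 genes.

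After 24:5, most rod genes had slightly higher means than after vehicle, and none was called. Means were higher for 28 of 32 genes, and lower for Impg2, Prom1, Sag and Impg1. The median log2 fold change was 0.13, a fold of 1.10, where the median over all 17466 genes tested was 0.00. No member had an adjusted p below 0.05 (edgeR over all genes tested), the rule for a call in the injected retinas, and 2 genes (0.0115%) did over the table. DESeq2 called 245 of 28984 genes, none of them a member, and at so low a share 0 of 32 says little. At an unadjusted p below 0.05 there were 4 members, all higher: Rom1, Guca1b, Prph2 and Gucy2f; 1154 genes (6.61%) were at that level over the table, 252 of them (1.44%) higher. The same 4 were the members whose groups did not overlap, where the background was 4.82% of genes higher and 6.77% lower. For 28 genes the 95% interval of the fold lay within 1.5-fold, and the exceptions were Prcd, Fscn2, Mak and Impg2.

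Rom1, which partners Prph2 at the disc rim, was at 1896, 1902 and 1833 CPM with vehicle and 2295, 2072 and 2183 CPM with 24:5. The 24:5 libraries were all above the vehicle ones, with means of 2183 ± 112 and 1877 ± 38.2 CPM (SD, n = 3 each). Its fold was 1.16 (95% interval 1.05 to 1.29, edgeR adjusted p = 0.459).

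Prph2 itself was at 3861, 4392 and 3761 CPM with vehicle and 4840.0, 4403 and 4733 CPM with 24:5, a fold of 1.16 (interval 1.02 to 1.33, edgeR adjusted p = 0.647). The lowest 24:5 library and the highest vehicle library were nearly equal. Among the disc genes Prcd was at 181 ± 36.9 and 157 ± 30.1 CPM, Cdhr1 at 849.6 ± 44.5 and 827 ± 39.0 CPM, and Prom1 at 917 ± 51.3 and 958 ± 25.3 CPM (24:5 and vehicle, SD, n = 3 each).

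Guca1b was at 676, 728 and 712 CPM with vehicle and 787, 808 and 868 CPM with 24:5, without overlap. Its fold was 1.16 (interval 1.04 to 1.30, edgeR adjusted p = 0.486). Gucy2f, the cyclase with 2 TAATCC runs before its start, was at 435, 502 and 382 CPM with vehicle and 535, 511 and 534 CPM with 24:5. Its lowest library was vehicle 3, and the fold was 1.20 (interval 1.02 to 1.41, edgeR adjusted p = 0.673). The other cyclase, Gucy2e, had a fold of 1.07 (interval 0.954 to 1.20) and the other activator, Guca1a, 1.11 (interval 0.854 to 1.45), and their groups overlapped. Guca1a was at 742, 687 and 529 CPM with vehicle and 872, 650.4 and 655 CPM with 24:5, highest in 24:5 library 1 and lowest in vehicle 3.

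All 3 transducin genes had higher means after 24:5. Gnat1 was at 6678, 7726 and 6627 CPM with vehicle and 7688, 7875 and 8216 CPM with 24:5, so 24:5 library 1 lay below vehicle 2. Its fold was 1.13 (interval 0.993 to 1.29), that of Gnb1 1.13 (0.955 to 1.34) and that of Gngt1 1.04 (0.778 to 1.38). Gngt1 was at 1404, 1456 and 1111 CPM with vehicle and 1720.2, 1131 and 1269 CPM with 24:5, with its highest and second lowest libraries both in the 24:5 group.

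The phosphodiesterase genes had folds of 1.06 (Pde6a, interval 0.943 to 1.20), 1.17 (Pde6b, 0.961 to 1.41) and 1.11 (Pde6g, 0.945 to 1.31). Pde6a was at 2477, 2830.1 and 2523 CPM with vehicle and 2658, 2848 and 2818 CPM with 24:5. Pde6g was at 1133, 1204 and 962 CPM with vehicle and 1346, 1132 and 1199 CPM with 24:5, and in both genes vehicle 2 reached into the 24:5 range. Of the channel and exchanger genes, Cngb1 was at 661, 724 and 605 CPM with vehicle and 768, 713 and 763 CPM with 24:5, a fold of 1.13 (interval 0.989 to 1.28). Slc24a1 was at 942, 1132 and 953 CPM with vehicle and 1113, 1068 and 1113 CPM with 24:5, where vehicle 2 was the highest of all 6 libraries. Cnga1 had a fold of 1.03 (interval 0.860 to 1.22).

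Among the shut-off genes the folds ran from 0.979 for Sag (interval 0.795 to 1.21) to 1.13 for Gnb5 (interval 0.972 to 1.31). Gnb5 was at 362, 425 and 342 CPM with vehicle and 444, 408 and 419.7 CPM with 24:5, and Rcvrn was at 661, 605 and 547 CPM with vehicle and 719, 585 and 630.2 CPM with 24:5. Rgs9 was at 425, 542 and 476 CPM with vehicle and 448, 528 and 554 CPM with 24:5, with low and high libraries in each group. Sag, the abundant rod arrestin, averaged 4417 ± 652 CPM after 24:5 and 4511 ± 528 CPM after vehicle (SD, n = 3 each). Grk1 and Rgs9bp had folds of 1.08 (interval 0.911 to 1.28) and 1.11 (interval 0.859 to 1.44).

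All 6 genes of the axoneme, cilium and inner segment had higher means after 24:5, with log2 fold changes from 0.06 (Mak) to 0.23 (Fscn2). Reep6 was at 228, 292 and 225 CPM with vehicle and 281, 282 and 304 CPM with 24:5, where 2 vehicle libraries were low and vehicle 2 lay among the 24:5 ones. Its fold was 1.16 (interval 0.977 to 1.39, edgeR adjusted p = 0.845). Tulp1 was at 464, 521 and 507 CPM with vehicle and 514, 555 and 541 CPM with 24:5, a fold of 1.08 (interval 0.964 to 1.21). Rp1 and Rp1l1 had folds of 1.05 (interval 0.945 to 1.17) and 1.10 (interval 0.921 to 1.32).

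**Figure D4:**
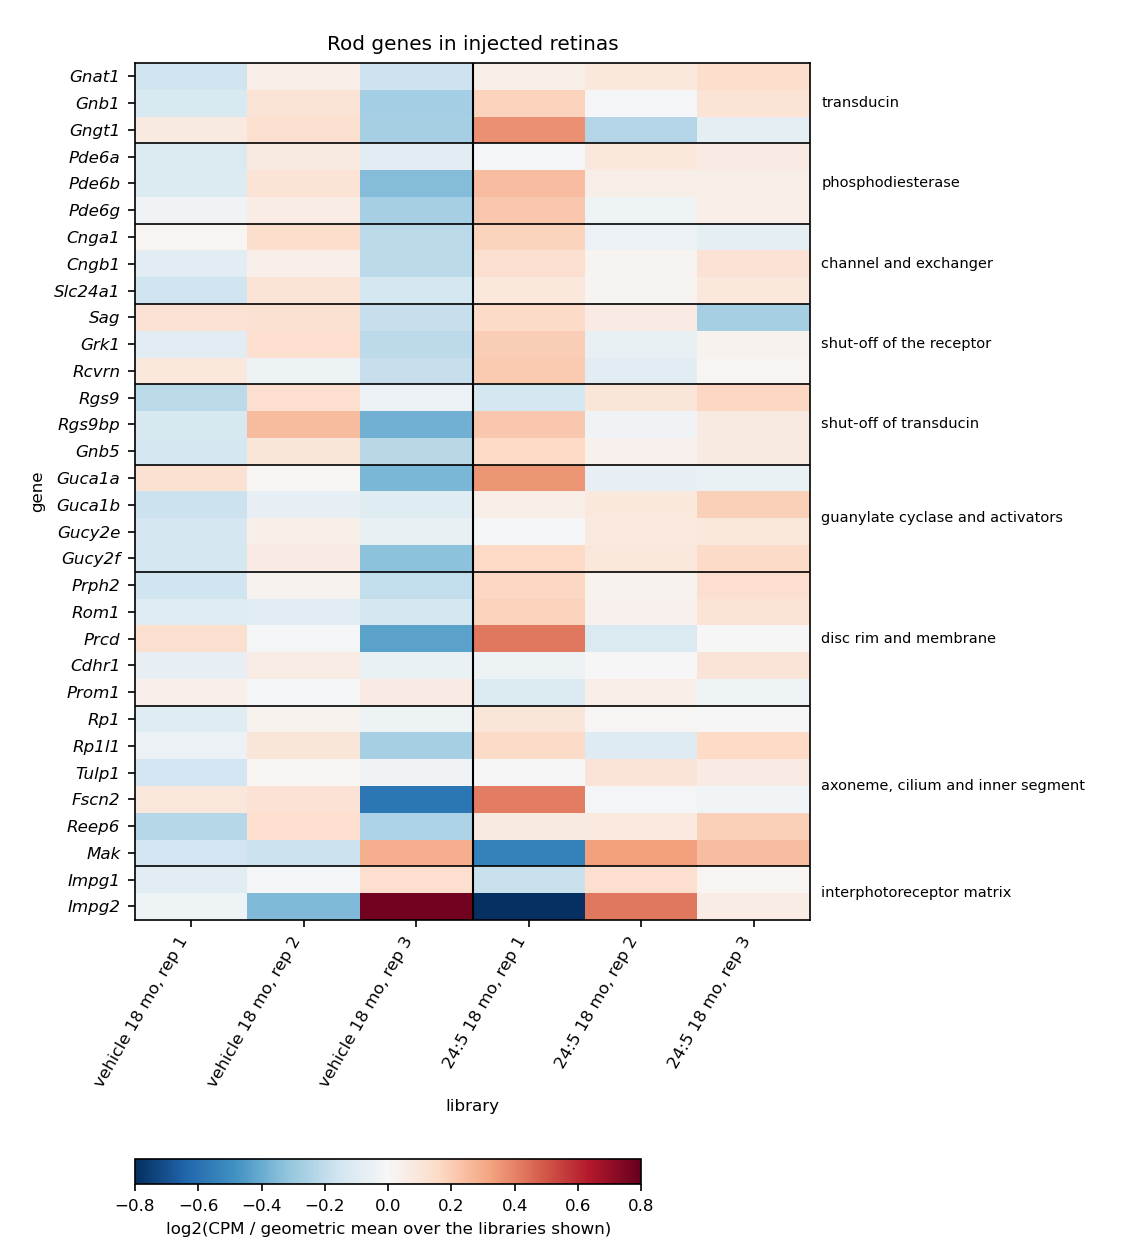
Each cell shows 1 rod gene (rows, by role) in 1 injected library (columns; rep is the replicate number, mo is months) as log2 of its CPM over the gene's geometric mean across the 6 libraries. Vehicle 3 is low and 24:5 library 1 high for most genes. Impg2, Mak, Impg1 and Prom1 run the other way (Impg2 at 2509 CPM in vehicle 3 and 811 CPM in 24:5 library 1).

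Single libraries moved the size of this difference. Leaving out each library in turn kept 27 or 28 of the 32 genes higher after 24:5, but the median fell to 0.08 without vehicle 3, whose rod genes were the lowest of the 6 (a median of -0.19 against the mean over the libraries, on the log2 scale), and rose to 0.21 without vehicle 2. The members with an unadjusted p below 0.05, 4 with all libraries, numbered from 1 (Rom1, without 24:5 library 3) to 12 (without vehicle 2), and were 2 without vehicle 1, vehicle 3 or 24:5 library 1. Rom1 was among them in all 6 of these fits, Guca1b in 5, Prph2 in 2 and Gucy2f in 1. The smallest edgeR adjusted p of any of the 4 was 0.349, for Guca1b. The share of counts in the 32 genes was 4.40%, 4.93% and 4.34% in the vehicle and 4.93%, 4.77% and 4.78% in the 24:5 libraries. The means were 4.56% ± 0.326 and 4.83% ± 0.0887 (SD, n = 3 each), which overlap (exact permutation p = 0.4, where 0.1 is the smallest possible). With the structural RNAs taken out of the total they were 5.08% ± 0.348 and 5.41% ± 0.243 (exact permutation p = 0.3).

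Markers of other cells also differed between these libraries. The pigment epithelium genes (12) summed to 202, 394 and 111 CPM in the vehicle and 372, 202 and 252 CPM in the 24:5 libraries, where the rod medians against the mean over the libraries were -0.09, 0.06 and -0.19 and 0.15, 0.03 and 0.07 on the log2 scale. Within each group the libraries stood in the same order by both measures. Across groups they did not: vehicle 2 exceeded 24:5 library 1 in the pigment epithelium sum but not in the rod median. The order was not particular to pigment epithelium, since reactive gliosis, interferon-response and endothelial sums stood in the exact reverse order within each group. Gliosis sums were 1460, 1239 and 2225 CPM in the vehicle and 407, 1997 and 1792 CPM in the 24:5 libraries. Microglial genes (18) summed to 371 to 608 CPM after vehicle and 174 to 285 CPM after 24:5, without overlap, with vehicle 3 the lowest of its group and 24:5 library 1 the highest of its own. Müller glia genes (15) summed to 6767 to 7137 and 5647 to 6423 CPM, also without overlap, and endothelial genes (12) to 509 to 597 and 424 to 513 CPM; in each of these lists 10 genes were lower after 24:5 and none was called. Interferon-response genes (18) summed to 968 to 1485 and 524 to 1072 CPM, and 17 of them were lower after 24:5. The 2 genes called over the table were both in this list and lower, Rnf213 and Ifit1 (edgeR adjusted p = 0.0117 and 0.0257). Reactive gliosis genes (13) summed to 1239 to 2225 and 407 to 1997 CPM, and lens genes (16) to 139 to 1945 and 61.9 to 732 CPM. Vehicle 3 had the highest and 24:5 library 1 the lowest gliosis sum of the 6. No gene of these lists was at 0 throughout a group. Their part in the rod gene differences was not tested, except through 2 fits. With the Irf9 split as a term, edgeR called Guca1a, Prcd and Fscn2 higher after 24:5 (log2 0.30, 0.37 and 0.43; adjusted p = 0.0343, 0.0177 and 0.0106). This was 3 of 32 where 1.72% of all genes were called, 0.281% as higher, and the median of the 32 was 0.19. With the mean lens level as a covariate the same 3 genes were called (log2 0.39, 0.48 and 0.57; adjusted p = 0.0349, 0.0311 and 0.00784), where 1.01% of all genes were called, 0.286% as higher, with a median of 0.22. The lens sums were 139, 139 and 61.9 CPM in the Irf9-high libraries and 1818, 1945 and 732 CPM in the Irf9-low ones. The 2 added terms therefore separate the same libraries, and their calls are not independent of each other. Within the Irf9-high libraries (2 after 24:5, 1 after vehicle) 28 of 32 genes were higher after 24:5, with a median of 0.20. Within the Irf9-low ones (1 and 2) 26 were higher, with a median of 0.14.

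Impg2 and Mak had the widest relative spread of the 32 genes in the injected retinas, and both were singled out after their values were seen. Prom1 (981 CPM in vehicle 3 and 868 CPM in 24:5 library 1) and Impg1 (342 and 275 CPM) went the same way with a narrower range. Impg2 was at 1433, 1149 and 2509 CPM with vehicle and 811, 1967 and 1531 CPM with 24:5. Its 3 highest libraries were the 3 Irf9-high ones, from both groups. Its fold after 24:5 was 0.846 (interval 0.388 to 1.84, edgeR adjusted p = 0.997), and its coefficient of variation, 38.4%, was the widest of the 32.

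Mak was at 174, 171 and 237 CPM with vehicle and 133, 243 and 229 CPM with 24:5, again with the 3 Irf9-high libraries on top. The other matrix gene, Impg1, was at 293, 308 and 342 CPM with vehicle and 275, 342 and 316 CPM with 24:5, with the same 3 libraries highest but a narrower range. Over all genes tested 16.2% were higher and 14.1% lower in the Irf9-high libraries without overlap. Members lower there without overlap were Guca1a, Fscn2, Gngt1, Cnga1 and Sag. The signs of the 24:5 effects of Impg2 and Mak depended on the setting: without vehicle 3 they were 0.16 and 0.23 on the log2 scale, and with the Irf9 split as a term they were -0.60 (SE 0.13, adjusted p = 0.0862) and -0.19 (SE 0.082, adjusted p = 0.353).

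**Figure D5:**
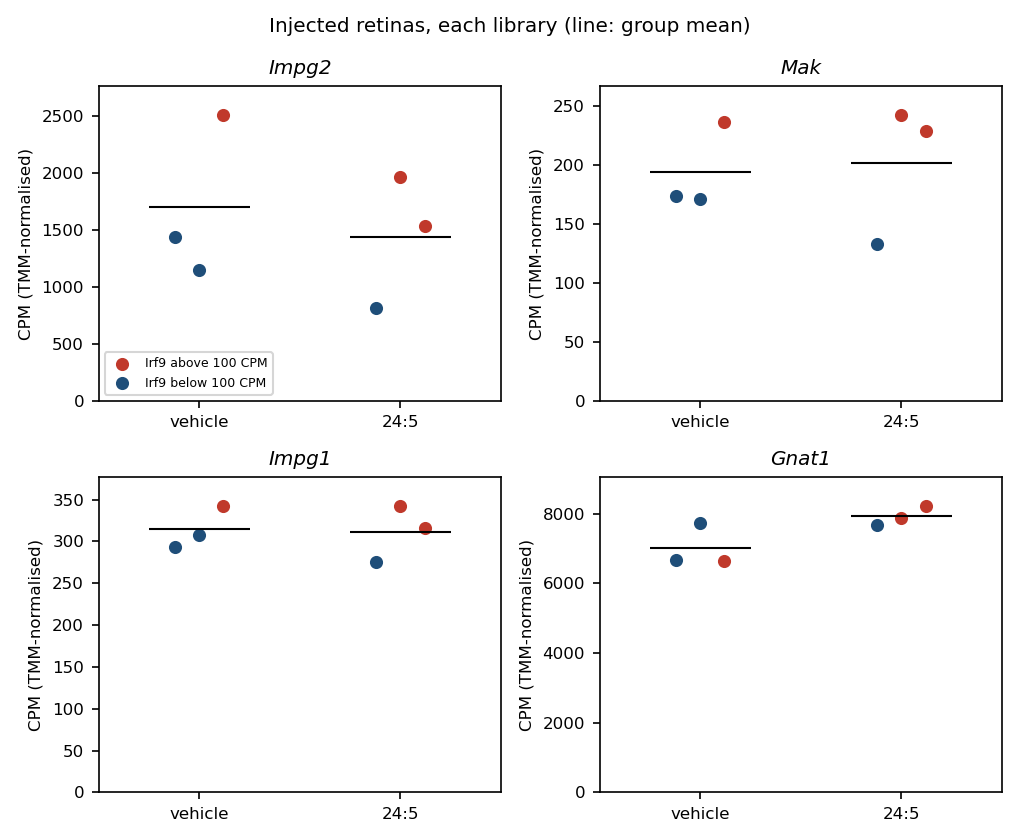
CPM of Impg2, Mak, Impg1 and, for comparison, Gnat1 in each injected library (vertical axes from 0), with the group mean as a line and libraries with Irf9 above 100 CPM in red. For Impg2, Mak and Impg1 all red points lie above all blue ones, while Gnat1 has a red point lowest in the vehicle group.

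In the uninjected retinas Impg2 stayed between 47.4 and 54.7 FPKM. Irf9 ran from 2.34 to 4.65 FPKM there and did not define a split, so the pattern of the injected retinas could not be looked for. Per gene length Impg2 ranked number 30 of the 32 genes in the uninjected and number 17 in the injected retinas. The 2 tables were normalised separately and the difference was not tested. The ranks of the top 5 genes (Gnat1, Prph2, Rom1, Gnb1 and Guca1a) were the same in both tables.

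The same comparisons were made for 44 other photoreceptor genes of transport, the cilium and phototransduction. For age 23 were higher and 21 lower (median log2 0.01), for genotype 20 and 24 (-0.01), and none was called. After 24:5, 35 were higher and 9 lower (median 0.10), and none was called; the smallest p values belonged to Samd11 (274 ± 9.87 and 224 ± 14.3 CPM after 24:5 and vehicle, SD, n = 3 each; edgeR adjusted p = 0.328) and Rdh12 (363 ± 12.5 and 294 ± 26.6 CPM, adjusted p = 0.383). Of 14 photoreceptor transcription factors 12 were higher after 24:5 (median 0.14), none called, and Nrl, the rod determinant, was at 1488 ± 113 and 1178 ± 191 CPM (adjusted p = 0.608). Of 13 cone genes 10 were higher (median 0.10), also with none called. Positive medians after 24:5 were not limited to photoreceptors. They were 0.14 for retinal ganglion cell genes (12 of 13 higher), 0.11 for amacrine and horizontal genes (10 of 14), 0.19 for pigment epithelium genes (7 of 12) and 0.02 for ON bipolar genes (8 of 15). The Müller glia, reactive gliosis, microglia, interferon-response, endothelial and lens lists had negative medians. The rod genes' median of 0.13 lay among the positive values, and no test of a difference between lists was made.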

How the data were processed

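Messenger RNA of whole retinas was described as captured with poly-T beads and made into strand-marking (dUTP) libraries, per the labels' protocols. The authors deposited FPKM values per gene for the 10 uninjected retinas, with gene length and mm10 coordinates in the file, and raw counts per gene for the 6 injected retinas, per the file headers. The tools HISAT2 2.2.1, featureCounts 2.0.6 and DESeq2 1.42.0 and the build mm10 come from the submitters' processing notes, which assign them no step. Annotation release and strand setting: not given in the sources used here. FPKM times gene length gave whole reads (within 0.02 of a whole number) for 100% of values above 0 worth under 1000 reads, from which depth and reads were recovered.

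The uninjected groups entered 1 robust limma-trend fit (limma 3.58.1, R 4.3.3) of log2(FPKM + 1), for genes averaging 1 FPKM or more. Fold changes on that scale understate those of low genes. For the injected groups the robust quasi-likelihood test of edgeR 4.0.16 was used, with TMM and filterByExpr. Tests were two-sided, p-values were adjusted by Benjamini-Hochberg over all genes tested, and a call needs an adjusted p below 0.05. All 32 members passed both filters. The tables were normalised separately, so nothing was tested across them. Both fits were run on simulated counts with known changes of 1.5-fold or more, 1 common dispersion and no library split. Smaller changes were not simulated, so this does not bear on the member differences reported here. Count identifiers were matched to the FPKM table's symbols (48092 of 48440).

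The 32 members, the other gene lists and the library splits by Malat1 and Irf9 were chosen with earlier results of these data known. All members are named; per-library values are given for the 4 with the smallest p in each comparison, for the member with the highest mean FPKM of each role, and for Impg2 and Mak. Up to 3 genes of another list are named by smallest p. No relation of same-numbered libraries is stated in the labels. Alternatives covered the pseudocount, filters, scaling, tests, samples in the fit, quality weights, library splits, the replicate number and leaving out each library. The medians within Malat1 and Irf9 classes were added after the values were seen. Promoter windows came from RefSeq on GRCm38.p6.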

Additional observations from a re-analysis of the deposited data

How the results depend on the processing

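Of 2368 alternative values of single members, 210 had the other sign, all where the value reported was within 1 SE of 0. No member was called under the pseudocount of 0.1, rescaling, edgeR or DESeq2 on recovered reads, the Malat1 term, the replicate block or any left-out library. Calls appeared with quality weights (2 members for age, 3 for genotype), the Irf9 term (3 for 24:5) and the lens covariate (3 for 24:5); the cause was not tested.

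Genes called over the whole table moved more. For age there were 4 without the filter, 1 with edgeR, 9 with DESeq2, 1246 with quality weights, 1 with the Malat1 term, and 0 to 1 with libraries left out. For genotype there were 4 without the filter and 2598 with quality weights. For 18-month wildtype against mutants there were 1 without the filter, 11 with DESeq2, 2 with only the groups compared, 5 with quality weights, 1 with the Malat1 term, and 0 to 3 with libraries left out. For 24:5 there were 245 with DESeq2, 85 without the filter, 11 with voom and quality weights, 88 with the replicate block, 300 with the Irf9 term, 177 with the lens covariate, and 0 to 105 with libraries left out (105 without vehicle 3); the cause was not tested.

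The members' median with quality weights was 0.0656 for age, 0.0819 for genotype and -0.0189 for 18-month wildtype against mutants. Within the Malat1-low libraries it was -0.0176 for genotype and -0.0275 for 18-month wildtype against mutants, where leaving out libraries gave -0.0236 to 0.0095 and 10 to 17 members higher. Median-of-ratios rescaling raised the members with a positive log2 fold change for age from 21 to 27, and turned the split of all genes at an unadjusted p below 0.05 from 233 higher and 270 lower to 342 and 156 for age, and from 149 and 153 to 202 and 91 for genotype.

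Deviations of same-numbered libraries correlated at -0.47 to 0.51 between uninjected groups and at 0.40, -0.20 and 0.42 between vehicle and 24:5, not above 0.1 in every pair, so the numbers were not taken as pairs. Of the 6 injected libraries 4 correlated best with their own number, and structural RNA shares were close by number (12.9% and 13.4%, 9.35% and 9.55%, 8.54% and 9.21%, vehicle and 24:5), so a shared animal behind the numbers cannot be told from these data. The replicate block left 0 members called in each comparison, with 28 of 32 higher after 24:5. With 3 or 4 libraries a group, the 95% interval lay within 1.5-fold for 28 to 32 of the 32 genes, depending on the comparison. For most members the interval also included no change, so small differences were mostly not resolved. Intervals cover the spread between libraries only.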

Other observations

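Among other retinal cells, the 15 ON bipolar genes, which receive rod output at the first synapse, had positive log2 fold changes for 12 genes at 18 against 12 months (median 0.15) and for 14 genes in mutants against 12-month wildtype (median 0.10), with none called by limma. The 13 mitochondrially encoded genes had positive changes for 12 and 11 genes (medians 0.40 and 0.36), also with none called. All genes of the mitochondrial chromosome together took 2.66% to 4.31% of the uninjected reads. Age and genotype share the 12-month wildtype libraries, so like signs in the 2 comparisons are not independent. Reactive gliosis genes were lower for all 10 tested in both (medians -0.29 and -0.25), none called. For 18-month wildtype against mutants directly, 6 of 15 ON bipolar genes were higher (median -0.03). Of the 13 mitochondrially encoded genes 9 were (median 0.04). Retinal ganglion cell genes were lower at 18 months for 9 of 13 (median -0.03) and higher after 24:5 for 12 of 13 (median 0.14), none called. For age, genotype and 24:5 the medians of the 32 rod genes were 0.03, 0.04 and 0.13.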
